A study of Gallus gallus with 10 samples.

Results

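The enzymes that attach ubiquitin to proteins, and the USP proteases that remove it, were compared between male and female chicken embryos in RNA from the whole brain. Members were chosen by gene symbol alone, as symbols that begin with UBA, USP, UBE2, UBE3 or UBE4 and, for UBA and USP, go on with a digit. The rule left out UBE2R2, which lies on Z, and UBE2R2L, which lies on W. It gave 73 genes of the 13051 measured genes, each represented by whichever of its probe sets had the highest mean level across 10 arrays. The rule on symbols uses no measured value, but it was set with earlier results of these data known. With those genes left out, all 73 members lay on autosomes, on 24 chromosomes, and 0 lay on the Z or W chromosome or were unplaced. A comparison of Z with autosomal members could therefore not be made within the family, and the members were set beside all autosomal and all Z genes instead.

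The study compared the sexes with Affymetrix chicken arrays, one array per sample, of total RNA from dissected whole brains. There were 5 male and 5 female samples, and the labels name sex as the only difference between the groups. The title of male replicate 1, unlike the other titles, names no sex, so among its labels only the description gives it. The labels give no treatment, genotype, breed or embryonic age. Nothing in them says that each sample came from a separate embryo, so p-values cover no more than the spread among the samples at hand, and that spread may be technical. Birds have ZZ males and ZW females, and the comparison asks which transcripts differ in level between them.

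Ubiquitin is joined to target proteins by a relay. An E1 enzyme activates it, an E2 enzyme carries it, and an E3 ligase passes it to the target, while E4 enzymes lengthen the chains. Chains of one type send a protein to the proteasome, others alter its traffic or signalling, and deubiquitinases such as the USP family trim or remove them. In neurons this system is known for its part in synapse growth and turnover, and loss of UBE3A in the human brain causes Angelman syndrome.

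Levels are given as log2(intensity + 16), and every difference is male minus female on that scale. A gene was called expressed at a mean of at least 9.33, the median of all tested probe sets. The tissue and sex labels matched their markers. Of 9 measured neuronal markers 8 were expressed, the exception being GAP43 at 6.50, and all 6 measured progenitor and glial markers were expressed. The haemoglobin genes HBA1, at a mean of 17.14, and HBAD, at 16.53, showed that RNA of blood cells was present, and the choroid plexus marker TTR stood at 16.83. The blood list gave 3 measured genes, these 2 and ALAS1, which was matched through a synonym to the listed ALAS2. The summed intensity of the 3 ran from 214974 to 260408 in males and from 239645 to 272760 in females, and their part in the results was not tested. None of the measured markers of these cell types, or of muscle, eye and pituitary, passed the test between the sexes. Some single arrays stood apart all the same. POMC of the pituitary list read 12.38 on female replicate 1 and from 8.04 to 9.72 on the other arrays. ACTA1 of the muscle list read 11.19 and 11.02 on female replicates 3 and 4 and from 9.18 to 10.34 on the others. The part of these values in the results was not tested. The W gene HINTW was higher in all 5 females, by 9.59. It read 7.22 on male replicate 1 and from 16.53 to 16.94 in the females. In whole tissue, fewer cells of a type and less RNA per cell cannot be told apart.

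No member differed between the sexes past the threshold of 0.05. By limma with Benjamini-Hochberg adjustment over all genes, 0 members were higher in males, where 1.59% of all genes were, and 0 were higher in females, where 0.207% of all genes were. Among autosomal genes alone, the shares were 0.0409% and 0.106%, and 0 calls among 73 genes is close to those shares. At an unadjusted p under 0.05 there were also 0 members in the main fit, against 7.62% of all genes and 5.08% of autosomal genes. Other settings gave up to 3 members. The lowest adjusted p of a member was 0.662, for USP12. The median difference over the 73 members was -0.02, a male to female ratio of 0.987, and that over all autosomal genes was -0.03. Positive differences were found for 31 members, or 42.5%, and for 42.7% of autosomal genes.

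**Figure D1:**
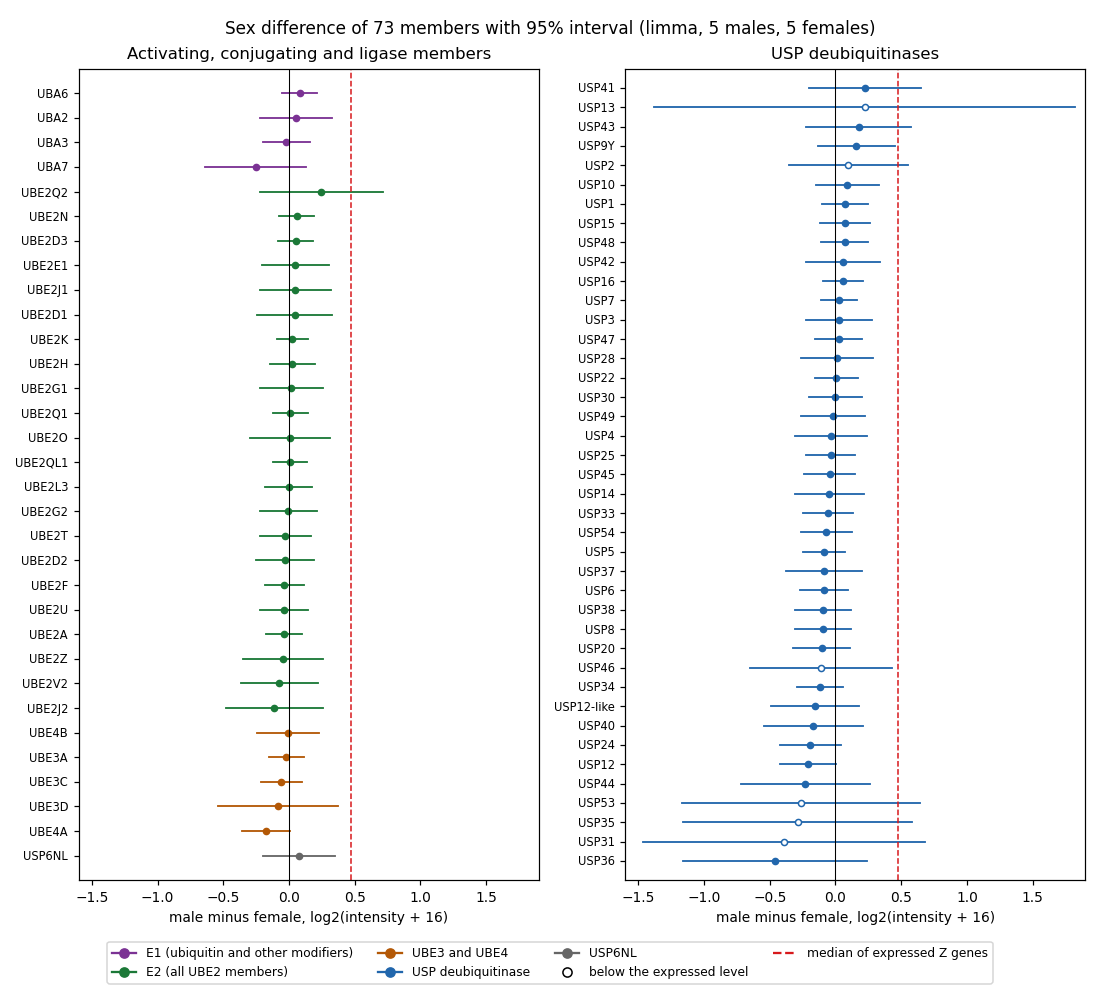
Male minus female difference of each of the 73 members on the log2(intensity + 16) scale (horizontal axis), with limma's 95% interval as a bar and n = 5 arrays per sex. All intervals cross 0, and the wide bars belong mostly to members below the expressed level, drawn as open points. The dashed line is the median of expressed Z genes, at 0.47.

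How closely the arrays bounded these differences varied by member. The standard error ran from 0.05 for UBE2K, an E2 that builds chains by itself, to 0.71 for USP13, and its median was 0.10. For 32 members the 95% interval lay within a 1.2-fold difference in either direction, and for 63 it lay within 1.5-fold. Among expressed members the first share was 47.8%, and among the other expressed autosomal genes it was 33.7%. For 1.5-fold the shares were 92.5% and 85.9%. The median difference of the expressed Z genes was 0.47, a ratio of 1.39. The whole interval lay below that value for 65 of the 73 members, or 89.0%, and for 70.8% of autosomal genes. Among expressed genes the shares were 95.5% of members and 88.6% of the other autosomal genes. The 8 members whose interval reached 0.47 were UBE2Q2, USP13, USP2, USP31, USP35, USP41, USP43 and USP53. Of these 8, USP2, USP13, USP31, USP35 and USP53 were below the expressed level, as was USP46, and the other 67 members were expressed.

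**Figure D2:**
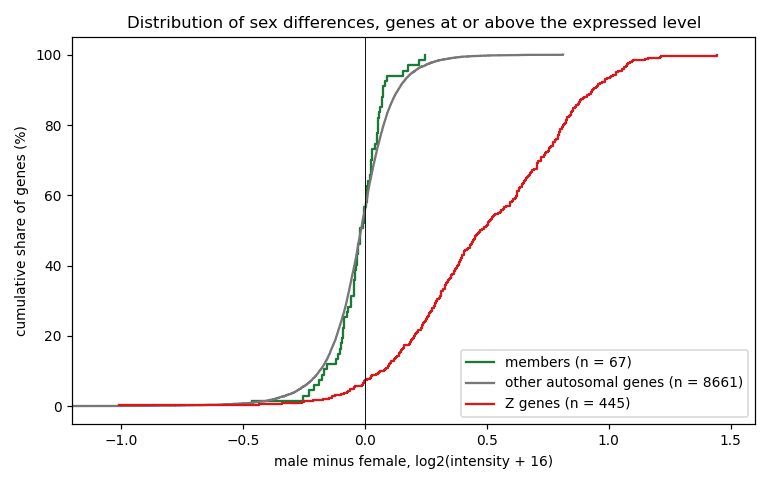
Cumulative share of genes, in percent (vertical axis), by male minus female difference in log2(intensity + 16) (horizontal axis), for the 67 expressed members, the 8661 other expressed autosomal genes and the 445 expressed Z genes. The curve of the members runs beside that of the autosomal genes, with a median of -0.02 for each, while that of the Z genes is shifted to a median of 0.47.

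The spread among the members was small. From the lower to the upper quartile, the differences spanned 0.12 over the expressed members and 0.15 over the other expressed autosomal genes. No member had all arrays of one sex above all arrays of the other, which 0.188% of autosomal genes showed with males above and 0.662% with females above. In 1 member, UBA6, at least 4 males lay above every female, and in 2, USP12 and USP5, at least 4 females lay above every male. These arrangements occurred in 1.29% and 4.04% of autosomal genes.

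The activating enzymes come first in the relay. UBA6 is an E1 that charges ubiquitin and, in mammals, also the ubiquitin-like protein FAT10. It read 11.26, 11.33, 11.15, 11.26 and 11.09 in the 5 males and 11.14, 11.14, 11.13, 11.13 and 11.15 in the 5 females. The females were almost level and 4 of the 5 males lay above all of them, while the fifth lay below. That count of 4 rests on male replicate 3 at 11.1499 against female replicate 5 at 11.1493. The difference was 0.08 (SE 0.06, 95% interval -0.05 to 0.21) with a limma adjusted p of 0.859. The other expressed probe sets of UBA6, at means of 11.16 and 10.09, had -0.07 (SE 0.17) and 0.06 (SE 0.15).

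Of the 3 measured E1 members that serve other modifiers, 1 had a positive and 2 a negative difference, and 0 passed the test. UBA3, the catalytic subunit of the NEDD8-activating enzyme, read 13.86, 13.94, 13.78, 13.96 and 13.74 in males and 14.00, 14.02, 13.81, 13.75 and 13.80 in females. The ranges overlapped almost fully, and the difference was -0.02 (SE 0.08). UBA2, a subunit of the SUMO-activating enzyme, had a difference of 0.05 (SE 0.12), with both its highest and its lowest array among the females. UBA7, which activates the antiviral modifier ISG15 in mammals, read 10.54, 10.58, 10.86, 10.73 and 11.13 in males and 11.19, 11.01, 11.34, 11.07 and 10.49 in females. Its lowest array was a female although the next 4 females lay above 4 of the males, and the difference of -0.25 (SE 0.17) had a limma adjusted p of 0.836. The other expressed probe sets of UBA7, at means of 10.70 and 9.74, had -0.47 (SE 0.23) and -0.0074 (SE 0.18).

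The 20 conjugating enzymes of ubiquitin had a median difference of 0.01, with 12 positive and 8 negative, and all lay between -0.11, for UBE2J2, and 0.25, for UBE2Q2. In 13 of the 20, or 65%, the interval lay within 1.2-fold, against 33.7% of expressed autosomal genes that were not members. The sign of this median depended on the reading of the genes: with the mean over all probe sets of a gene it was -0.02, and with centring on expressed autosomal genes 0.02.

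UBE2N, which builds chains used in DNA repair and immune signalling, had similar values on all arrays, which were 15.66, 15.77, 15.64, 15.77 and 15.69 in males and 15.71, 15.71, 15.53, 15.66 and 15.64 in females. The sexes overlapped, with 2 males above every female, and the difference was 0.06 (SE 0.06, 95% interval -0.08 to 0.19). Its partner UBE2V2, an E2-like protein without the catalytic cysteine, had a difference of -0.07 (SE 0.13).

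UBE2D3 is an E2 that works with many RING ligases. It read 15.17, 15.15, 15.27, 15.13 and 15.06 in males and 15.05, 15.12, 15.04, 15.18 and 15.14 in females, which overlapped, with a difference of 0.05 (SE 0.06). Its close relatives UBE2D1 and UBE2D2 had differences of 0.04 (SE 0.13) and -0.03 (SE 0.10). UBE2A, the relative of yeast Rad6 that marks histones and damaged DNA sites, had -0.04 (SE 0.06, 95% interval -0.18 to 0.10). UBE2F, an E2 for NEDD8 rather than ubiquitin, had -0.03 (SE 0.07).

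UBE2K, whose difference had the smallest standard error, read 14.59, 14.70, 14.66, 14.65 and 14.57 in males and 14.64, 14.60, 14.66, 14.53 and 14.61 in females. The sexes overlapped, and the difference was 0.03 (SE 0.05, 95% interval -0.09 to 0.15). UBE2L3, an E2 that serves HECT and RBR ligases, had -0.0035 (SE 0.08), and UBE2H had 0.03 (SE 0.08). Of the E2 members that act in the degradation of proteins from the endoplasmic reticulum, UBE2G2 had -0.0043 (SE 0.10), UBE2J1 0.05 (SE 0.12) and UBE2J2 -0.11 (SE 0.16). UBE2T, the E2 of the Fanconi anaemia pathway, had -0.03 (SE 0.09), and UBE2Z, which takes its charge from UBA6 in mammals, had -0.04 (SE 0.14).

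UBE2Q2, an E2 with a long N-terminal extension, had the highest difference of all members. Its values were 10.27, 10.34, 10.45, 10.36 and 10.49 in males and 10.22, 10.48, 9.31, 10.50 and 10.17 in females. Female replicate 3 lay far below all other arrays, and apart from it the sexes overlapped. The difference was 0.25 (SE 0.21, limma adjusted p 0.880), and it was 0.04 without that array.

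All 5 ligase and chain-elongation members had a difference below 0, with a median of -0.06, and 0 passed the test. Of expressed autosomal genes, 44.1% had a positive difference. After centring on expressed autosomal genes 4 of the 5 were negative, since UBE4B moved to 0.01. With the mean over all probe sets of a gene 4 were negative as well, and without female replicate 3 only 3 were. UBE3A, the ligase lost in Angelman syndrome, read 13.36, 13.41, 13.33, 13.31 and 13.42 in males and 13.28, 13.42, 13.32, 13.44 and 13.48 in females. The sexes overlapped, 3 females lay above every male, and the difference of -0.02 (SE 0.06) had a 95% interval of -0.15 to 0.12. UBE3C, a HECT ligase that acts at the proteasome, had -0.06 (SE 0.07), and UBE3D, an E3 member with a wide spread, had -0.09 (SE 0.20). The other probe sets of UBE3C went the other way, with 0.09 (SE 0.11) at a mean of 12.84 and 0.13 (SE 0.19) at 10.03.

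UBE4A and UBE4B are the U-box enzymes that lengthen ubiquitin chains. UBE4A read 11.93, 11.87, 11.61, 11.85 and 11.82 in males and 11.89, 11.97, 12.18, 11.93 and 12.01 in females. The sexes overlapped, with 3 females above every male and the lowest value in a male. The difference was -0.18 (SE 0.08, 95% interval -0.36 to 0.01), with an unadjusted p of 0.0576 and a limma adjusted p of 0.681. UBE4B had -0.01 (SE 0.11). The deubiquitinase USP28, a regulator of the MYC protein, is separated from UBE4A by 2 protein-coding genes on chromosome 24, the closest pair of members, and its difference was 0.01.

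The 41 deubiquitinases had the widest range, from -0.46, for USP36, to 0.22, for USP41. They were also the largest group, and a span from lowest to highest tends to grow with the number of genes. There were 16 positive and 25 negative differences with a median of -0.04, and 0 passed the test. Without female replicate 1 the median was -0.01. On that array, 11 of the 35 expressed deubiquitinases had the highest value of the 10 arrays, or 31.4%, against 12.2% of expressed autosomal genes. Their median deviation from each gene's own mean was 0.11 there and between -0.05 and 0.03 on the other arrays. None of the 20 ubiquitin E2 members had its highest value on it.

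USP12, a protease that works with WD-repeat partner proteins, had the lowest p of the members. It read 10.80, 11.16, 10.80, 10.95 and 10.98 in males and 11.18, 11.26, 10.91, 11.18 and 11.20 in females. Female replicate 3 fell among the males, and the other 4 females lay above every male. The difference was -0.21 (SE 0.09, 95% interval -0.42 to 0.00), with an unadjusted p of 0.0529 and a limma adjusted p of 0.662. The gene listed as USP12-like, on chromosome 4, had a difference of -0.16 (SE 0.15).

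USP24, a large protease, read 13.93, 13.76, 13.73, 13.53 and 13.64 in males and 14.09, 13.91, 14.01, 13.90 and 13.64 in females. Only 2 females lay above every male, and the difference was -0.19 (SE 0.10, limma adjusted p 0.769). The other expressed probe sets of USP24 disagreed in sign, with 0.10 (SE 0.16), -0.45 (SE 0.28), -0.16 (SE 0.21) and 0.18 (SE 0.23). USP34, which acts in Wnt signalling, had -0.12 (SE 0.08, 95% interval -0.29 to 0.06). USP36, a protease of the nucleolus, was the least even of the expressed members, at 9.15, 9.99, 10.06, 9.88 and 10.50 in males and 11.17, 10.08, 10.75, 9.79 and 10.10 in females. Its extremes were male replicate 1 and female replicate 1, and the difference of -0.46 had an SE of 0.31. USP44, which guards the spindle checkpoint, had -0.23 (SE 0.22), and USP6, as the gene is listed, had -0.09 (SE 0.08).

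USP5 takes apart free ubiquitin chains and so returns single ubiquitin to the pool. Its 5 males spanned only 13.53 to 13.55, while the females read 13.81, 13.55, 13.46, 13.59 and 13.68. Here 4 females lay above every male and 1 below every male, and the difference of -0.08 (SE 0.07) had a limma adjusted p of 0.880.

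USP7, which stabilises the p53 regulator MDM2, read 13.69, 13.76, 13.65, 13.79 and 13.58 in males and 13.73, 13.62, 13.69, 13.69 and 13.60 in females. The sexes overlapped, and the difference was 0.03 (SE 0.06, 95% interval -0.11 to 0.17). Its other expressed probe sets had -0.0029, 0.07 and -0.38. The last of these, at a mean of 9.71, had a 95% interval of -0.68 to -0.08 and a limma adjusted p over probe sets of 0.516. USP14, which trims chains at the proteasome, had -0.05 (SE 0.12). USP1, which acts in DNA repair, and USP48 each had 0.07 (SE 0.08).

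USP9Y is the symbol the reference gives to a gene on chicken chromosome 1. In mammals the USP9 genes lie on the X and Y chromosomes. The values were 13.97, 13.73, 13.37, 13.75 and 13.77 in males and 13.39, 13.65, 13.39, 13.49 and 13.87 in females. One male lay above every female and the lowest value was also a male, so the sexes overlapped, with a difference of 0.16 (SE 0.13, limma adjusted p 0.880). The other expressed probe sets of USP9Y, at means of 13.54 and 11.35, had 0.02 (SE 0.07) and -0.19 (SE 0.13). USP41 had 0.22 (SE 0.19) and USP43 had 0.18 (SE 0.18). USP6NL, a Rab GTPase-activating protein named for its likeness to a part of USP6 and not itself a protease, had 0.08 (SE 0.12).

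**Figure D3:**
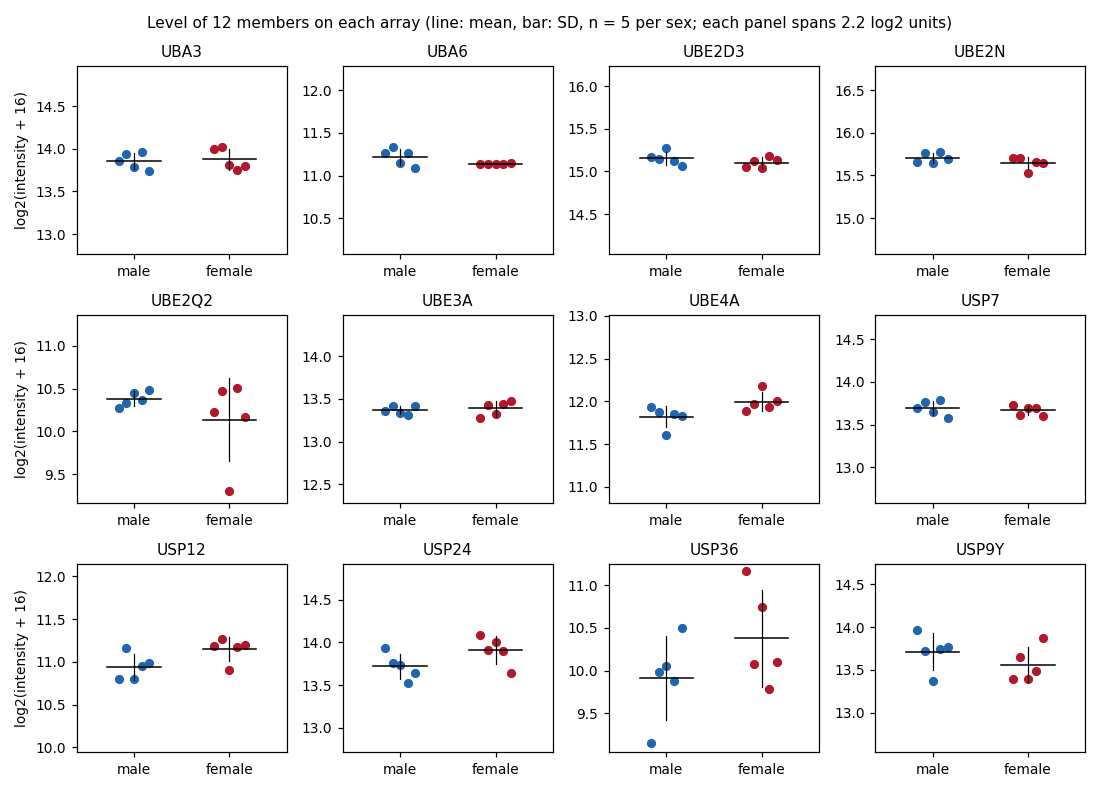
Level in log2(intensity + 16) (vertical axis) of 12 members on the 5 male and 5 female arrays, one point per array, with the mean as a line and the SD as a bar. Each panel spans the same range. The points of the sexes overlap in every panel, with the single low female of UBE2Q2 at 9.31 and the wide spread of USP36 standing out.

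USP3, USP10, USP16, USP22, USP30, USP33 and USP54 had differences no larger than 0.09 in size. USP22, the deubiquitinase of the SAGA transcription complex, had 0.01 (SE 0.07), and USP16 and USP3, which act on histones, had 0.05 (SE 0.07) and 0.03 (SE 0.11). USP30, which sits on the outer membrane of mitochondria, had -0.0022 (SE 0.09), and USP33, which acts in axon guidance in mammals, had -0.06 (SE 0.08). USP10 had 0.09 (SE 0.11), with 3 males above every female, and USP54 had -0.07 (SE 0.09), with 3 females above every male. All of these intervals crossed 0, the widest being that of USP3, at -0.23 to 0.28.

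The 6 members below the expressed level were all proteases, and their values bound little. Their differences ran from -0.39, for USP31, to 0.22, for USP13, with standard errors from 0.20 to 0.71. USP13 averaged 8.62 ± 0.84 in males and 8.40 ± 1.51 in females (SD over 5 arrays). Male replicate 1 at 7.12 and female replicate 3 at 5.73 lay apart from the other 8 arrays, which ran from 8.68 to 9.26.

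The array read 50 of the members with more than 1 probe set, and USP7 with 8. Of the 181 probe sets, 132 were at or above the expressed level and 49 were dim. Among the 40 members with several expressed probe sets, 19 had differences of both signs, and the median spread within a member was 0.12. The widest was that of USP24, at 0.63, followed by UBA7 at 0.46. At an unadjusted p under 0.05 there were 6 probe sets, or 3.31%, against 6.85% of all probe sets, and 5 of the 6 were dim. The other was an expressed probe set of USP7, with a difference of -0.38.

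One of the 181 passed the threshold when the adjustment ran over all probe sets, being higher in females, where 0.156% of all probe sets were. None was higher in males, where 0.643% of all probe sets were. It was the dimmest of 3 for USP8, a protease that sorts receptors at endosomes, and it was picked out after its values were seen. It read 5.15, 5.15, 7.69, 5.49 and 6.08 in males and 8.04, 8.50, 8.21, 8.93 and 8.44 in females. The sexes did not overlap, and the difference was -2.51 (SE 0.47, limma adjusted p 0.0484). The male mean of 5.91 lay under 6.16, the median of the virus probe sets that served as a background reference. The call was lost in 9 of the 10 fits that left out 1 array, with adjusted p from 0.00336 without male replicate 3 to 0.132. The brighter probe sets of USP8, at 13.44 and 11.89, had differences of -0.10 and -0.16, and the first of them represents the gene above.

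USP37, a protease active around DNA replication, showed a like pattern in its dim probe sets, also picked out after the values were seen. The brighter of them read 7.28, 5.69, 5.36, 5.03 and 6.64 in males and 8.54, 8.12, 7.77, 8.36 and 8.10 in females. The sexes did not overlap, and the difference of -2.18 (SE 0.41) had a limma adjusted p of 0.0508. The dimmer one had a difference of -1.59 (SE 0.40, limma adjusted p 0.202). The expressed probe sets of USP37 had differences of -0.09 each. Over all 49 dim probe sets of members the median difference was -0.23, and over all dim probe sets on the array it was -0.14. Over expressed probe sets the median was -0.01 for the members and for the array.

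**Figure D4:**
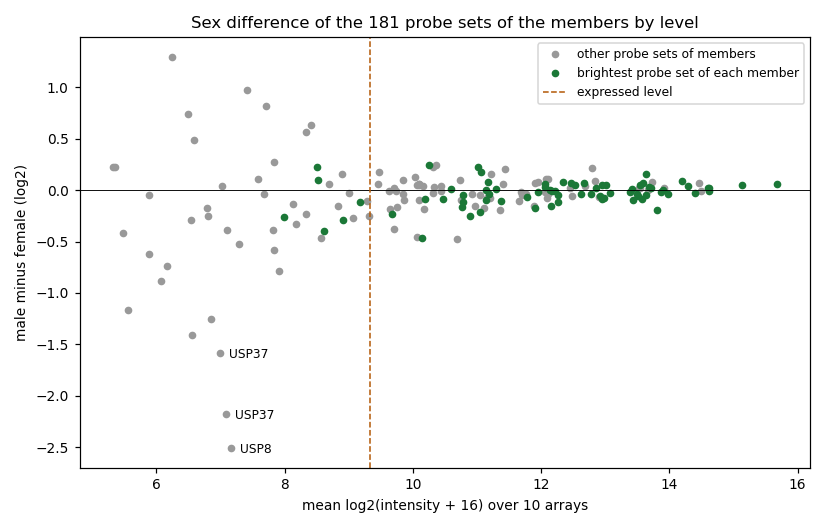
Male minus female difference in log2(intensity + 16) (vertical axis) of the 181 probe sets of the members against their mean level (horizontal axis). Each point is 1 probe set, green for the brightest of a member. Points right of the dashed expressed level at 9.33 stay close to 0, and the labelled dim probe sets of USP8 and USP37 lie at -2.51, -2.18 and -1.59.

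Other genes of the pathway were read from 6 lists by role. Of 112 listed genes 90 were measured, 83 of them autosomal, 6 on Z and 1 unplaced. Of the 83 autosomal genes, 0 passed the limma threshold and 2 had an unadjusted p under 0.05, which were the ligases CBL, at -0.41, and TRAF6, at 0.18. Their median difference was -0.02, the same to 2 decimals as that of the members, and 38 were positive. By list, 0 of 1 free ubiquitin gene, 0 of 19 other deubiquitinases, 0 of 17 cullins and adaptors and 0 of 30 ligases passed, against 2 of 18 receptors and shuttles and 1 of 5 other modifiers.

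The 3 that passed all lay on Z and were higher in males, where 33.2% of Z genes were. VCP is the ATPase that pulls ubiquitin-tagged proteins out of membranes and complexes. It read 15.47, 15.57, 15.63, 15.76 and 15.59 in males and 15.12, 15.09, 15.09, 15.07 and 15.03 in females. Every male lay above every female, as in 42.1% of Z genes, and the VCP difference was 0.52 (SE 0.06, limma adjusted p 0.00199). The dim second probe set of VCP, at a mean of 8.52, had -0.60 (SE 0.51), and the mean over both gave -0.04.

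UBAP2, a protein with a ubiquitin-binding domain, read 12.23, 12.25, 12.17, 12.29 and 12.53 in males and 11.78, 11.19, 11.46, 11.35 and 11.57 in females. Every male lay above every female, and the difference was 0.82 (SE 0.12, limma adjusted p 0.00548). ATG12, a ubiquitin-like protein of autophagy, had 0.74 (SE 0.13, limma adjusted p 0.0231). All 5 of its males lay above all females too, but its call was lost in 6 of the 10 fits that left out 1 array, with adjusted p up to 0.0723. The other Z genes did not pass: UBQLN1, which carries tagged proteins to the proteasome, had 0.60 (SE 0.16, limma adjusted p 0.186), RAD23B, another such carrier, 0.33 (SE 0.10), and the F-box protein SKP2 -0.08 (SE 0.17).

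The conjugating enzyme UBE2R2, left out of the members by the rule, is also on Z. The male mean of UBE2R2 was 13.47 ± 0.05 and the female mean 12.59 ± 0.15 (SD over 5 arrays). Every male lay above every female, and the sexes differed by 0.88 (SE 0.08, limma adjusted p 0.000259). UBE2R2L, also left out and on W, went the other way, with all 5 females above every male. Its mean was 7.58 ± 0.79 in males and 12.20 ± 0.14 in females, a difference of -4.62 (SE 0.33, limma adjusted p 0.00013). The interval of each of the 20 autosomal ubiquitin E2 members except UBE2Q2 lay below the Z median of 0.47. That was 95% of them, against 88.6% of expressed autosomal genes that were not members.

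**Figure D5:**
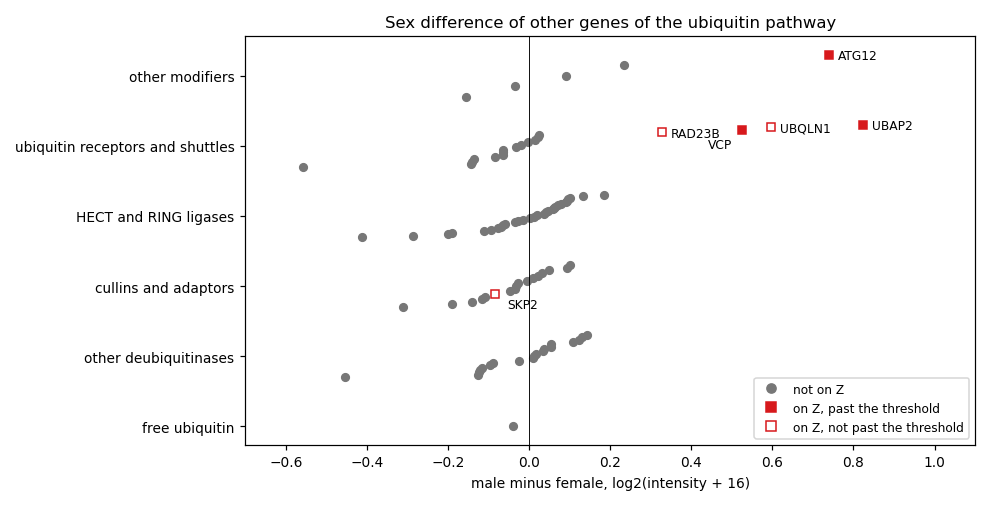
Male minus female difference in log2(intensity + 16) (horizontal axis) of the other measured genes of the pathway, by list (vertical axis), one symbol per gene. Grey circles, genes not on Z, gather around 0, while the Z genes, red squares that are filled where the test was passed, lie between 0.33 and 0.82 apart from SKP2 at -0.08.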

How the data were processed

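The authors' deposited values were intensity values on a linear scale, 1 for each of 38535 probe sets on each array. The summary method and software were not given in the sources used here. Trimmed of the top and bottom 2%, the mean was 2500 on every array, so arrays had been scaled before deposit. Array medians ran from 592 to 720, pairwise correlations of arrays from 0.918 to 0.946, and no pair was identical. The number of arrays limits the precision.

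Values were taken as log2(intensity + 16), which understates fold changes of dim genes. After removal of 96 control probe sets, 27168 probe sets had 1 gene symbol, 177 several and 11094 none. Genes were named through the platform's gene identifiers and a reference gene list (assembly bGalGal1.mat.broiler.GRCg7b), used for symbols, chromosomes and gene order. Of 13051 genes, 12872 matched by identifier, 1 by accession and 178 not at all. One unmatched identifier listed as USP43 was left out of the members. Of 87 reference genes that fit the rule, 14 were not analysed here. The 689 probe sets with identifiers of viruses served as a background reference, with medians from 5.41 to 6.32 by array.

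The test was limma's (version 3.58.1, R 4.3.3; lmFit, then eBayes), male against female, run over all genes with Benjamini-Hochberg adjustment. The method was tested on simulated data. The members and lists were chosen with earlier results of these data known. Named by rule were the 8 members with the lowest p in each direction, the 4 expressed members with the widest spread within a sex and a fixed set of well-known members. Others are named for their role or as extremes, after their values were seen.

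Alternatives were quantile normalization, centring on expressed autosomal genes, pseudocounts of 1 and 64, a filter on dim genes, exclusion of probe sets whose names mark possible cross-hybridisation, a gene's mean over its probe sets, other variance models, array weights, the letters of the titles as a block, and leaving out each array. For samples that share a letter, deviations from the mean of each sex were correlated over expressed autosomal genes. The correlations were 0.0013, 0.104, 0.033 and 0.107 for the letters B to E, small but all positive. Samples of different letters were not compared, so these values do not settle whether the letters mark pairs. The main test did not take the letters as pairs.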

Additional observations from a re-analysis of the deposited data

Results flagged for a closer look

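Across the 27 members named by rule, each sex was checked for a single array far from the other 4. That gave 54 groups, and 2 were marked. Chance alone marks about 1 in 20 groups that were not chosen by their values. That rate cannot be applied here, since many members were named for a low p or a wide spread. UBE2Q2 was named for both and USP12 for its low p. UBE2Q2 on female replicate 3 read 9.3063, below the other females at 10.17 to 10.50. USP12 on female replicate 3 read 10.9073, below the other females at 11.18 to 11.26. Both came from the same array, which had the highest virus median of the 10, at 6.32. Its part in these values was not tested.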

How the results depend on the processing

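The count of members higher in males was 0 under every alternative run. The count higher in females was 1 without probe sets prone to cross-hybridisation, 1 with the mean over probe sets and 1 over all probe sets, and 0 otherwise. The gene was USP8 each time, through its dim probe set: its difference was -0.92 (limma adjusted p 0.0328) with the mean over probe sets, where USP37 had -0.99 (adjusted p 0.0548). The call of that probe set was lost with a pseudocount of 1 (adjusted p 0.0696) and with quantile normalization (adjusted p 0.0584). That of the brighter dim USP37 probe set was gained with a pseudocount of 64 (adjusted p 0.0229) and without male replicate 1 (adjusted p 0.0131). The median over members stayed between -0.04 and -0.005. Members with an unadjusted limma p under 0.05 numbered 0 in the main fit. They numbered 3 with the mean over probe sets, 2 with the filter on dim genes and 1 with quantile normalization. Of all genes, those higher in males numbered 149 to 198 with 1 array left out, 0 with the replicate block and 143 on the same 8 arrays with no replicate block. Those higher in females numbered 16 to 29 with 1 array left out, with 16 without female replicate 3, and were 16 with the filter on dim genes, 1 with the replicate block and 17 on those 8 arrays without it. The block ended the calls of VCP, UBAP2 and ATG12 and changed no call of a member.

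Of 565 repeats over the 27 named members, 537 kept their sign and 0 passed the threshold, with a lowest adjusted p of 0.371. The sign of UBA2 turned with the replicate block, and on its 8 arrays without it, to -0.027, and that of UBA3 to 0.011. It turned with the mean over probe sets for UBA6 (-0.28), UBE2D3 (-0.032), UBE2N (-0.061), UBE2Q2 (-0.010), UBE3C (0.052), USP36 (0.14), USP44 (0.18), USP7 (-0.014) and the Z gene VCP (-0.037). With probe sets prone to cross-hybridisation left out it turned for UBA6 (-0.074) and UBE3C (0.088), and with centring for UBE4B (0.0074). With 1 array left out, UBA2 ran from -0.013 to 0.14, UBA3 from -0.050 to 0.016, UBE3A from -0.047 to 0.0033, UBE3D from -0.16 to 0.044, UBE4B from -0.050 to 0.065, USP14 from -0.10 to 0.023 and SKP2 from -0.17 to 0.0046. The cause was not tested. The intervals given are for single genes, with no adjustment for the number of genes tested. An interval could exclude 0 and the gene still miss the threshold, as for UBQLN1 (0.23 to 0.96, limma adjusted p 0.186). With 5 arrays per sex, differences inside the intervals, and some beyond them, could have been missed.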
